A study of Gossypium arboreum with 12 samples.

Results

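Among the transcripts measured in cotton ovules, 91 of 21791 rose steeply from the day of anthesis to the elongation stage and did so alike in a line that makes lint fibres and in a line that makes none. A transcript here is a probe set of the array, and some of the 91 belong to related sequences, as given below. The 91 were selected on the deposited values themselves. The mean of 10 dpa (days post anthesis) minus the mean of 0 dpa had to be at least 2.5 on the log2 scale in the fuzzy-linted line (*FL*) and in the fuzzy-lintless line (*Fl*). The means of the lines had also to lie less than 0.8 apart at each stage. The rises and the line differences given below are therefore a description of what chose the transcripts. Counts of calls by the fit over all transcripts stand beside the share of all transcripts called, and nothing about the 91 is read from them.

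Cotton lint fibres are single cells of the outer epidermis of the ovule. They start to bulge out around anthesis and then elongate. Over the same days a fertilised ovule grows into a seed, its integuments turn into the seed coat, and the endosperm and embryo develop inside. RNA of a whole ovule at the elongation stage therefore comes from these tissues as well as from fibre cells. Fewer cells of a type and less RNA per cell cannot be told apart in such bulk samples.

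The study compared *FL*, wild-type *Gossypium arboreum*, with *Fl*, the fuzzy-lintless mutant ANOI 1960, by total RNA from field-grown ovules. Ovules of *FL* at 0 dpa (fibre initiation), *Fl* at 0 dpa, *FL* at 10 dpa (fibre elongation) and *Fl* at 10 dpa were each hybridized to 3 cotton GeneChip arrays, 12 in all, which the labels give as biological replicates. The study's text calls the lines near isogenic but not perfectly so, and each genotype is represented by 1 line. It derives the near isogenic *Fl* line from a cross of *FL* and *Fl*, with *Fl* as the recurrent parent. By electron microscopy only *FL* ovules carried elongating fibre cells. The study describes more fuzz on *Fl* than on *FL*, so *Fl* ovules were not free of fibres. It reports few fibre initials on *Fl* ovules, although its conclusion gives no difference in initials apart from fuzz. The stage field of replicate 1 of *FL* at 10 dpa reads 0 dpa, whereas its title and source read 10 dpa, and it was grouped as 10 dpa. Without that array the rule picked 91 transcripts, 88 of them the same.

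Each level is a log2 value relative to the median of that transcript over the 12 arrays. The deposited table was centred in this way, so the brightness of a transcript, and hence its abundance against another transcript, cannot be read from it. Comparisons between the lines are on this deposited scale unless another is named, and several of them turned under another normalization, as given below. Arrays have no read depth, and the precision rests on 3 arrays per group. Array medians lay between -0.051 and 0.024. The SD over all transcripts was 0.489 to 0.501 on the *FL* arrays of 10 dpa and 0.347 to 0.364 on the other arrays. The 27 probe sets for the bacterial RNAs that are spiked into each hybridization stood at 0.41 ± 0.12 on the *FL* arrays of 0 dpa and at -0.24 ± 0.029 on the *Fl* arrays (mean ± SD, n = 3). At 10 dpa these controls had means of 0.096 ± 0.16 in *FL* and -0.057 ± 0.045 in *Fl* (SD, n = 3).

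The files pair none of the 91 with a gene, the study's tables name none of them, and the reference table of cotton genes used here holds no array identifiers. No gene name, role, promoter or protein can therefore be given for any of them. They are called transcript 1 to transcript 91, in the order of the mean of the rises in *FL* and *Fl*. Transcript 1 carries the identifier Ghi.5748.1.S1_s_at and transcript 2 the identifier GhiAffx.1589.45.S1_s_at.

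The labelled contrast of the lines was checked with 4 transcripts, called fibre transcripts here, which the study linked to fibre development. The study had picked them from these arrays, so their pattern is not independent of them. Whole-ovule RNA does not show which cells held them. Peroxidase 2, an enzyme that uses hydrogen peroxide, stood at 6.05, 6.24 and 5.92 in *FL* at 10 dpa and at -0.31, -0.39 and -0.04 in *Fl* at 10 dpa. At 0 dpa it lay between -0.20 and 0.17 on the 6 arrays of both lines. The change from 0 to 10 dpa was 6.08 in *FL* and -0.21 in *Fl* for peroxidase 2, and 6.10 and -0.02 for expansin-like B1, of a family related to proteins that loosen the cell wall. For beta-6 tubulin, a microtubule subunit, it was 3.48 and -0.07, and for UDP-D-galactose 4-epimerase 1, an enzyme of sugar nucleotide metabolism, 4.35 and -0.00. All 4 rose by a log2 difference of 3 or more in *FL* and changed by less than 0.25 in *Fl*. That the 91 had another course was fixed by the rule and by the study's choice of these 4. The study also listed other probe sets of peroxidase 2 and of the epimerase, with smaller line differences at 10 dpa.

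**Figure D1:**
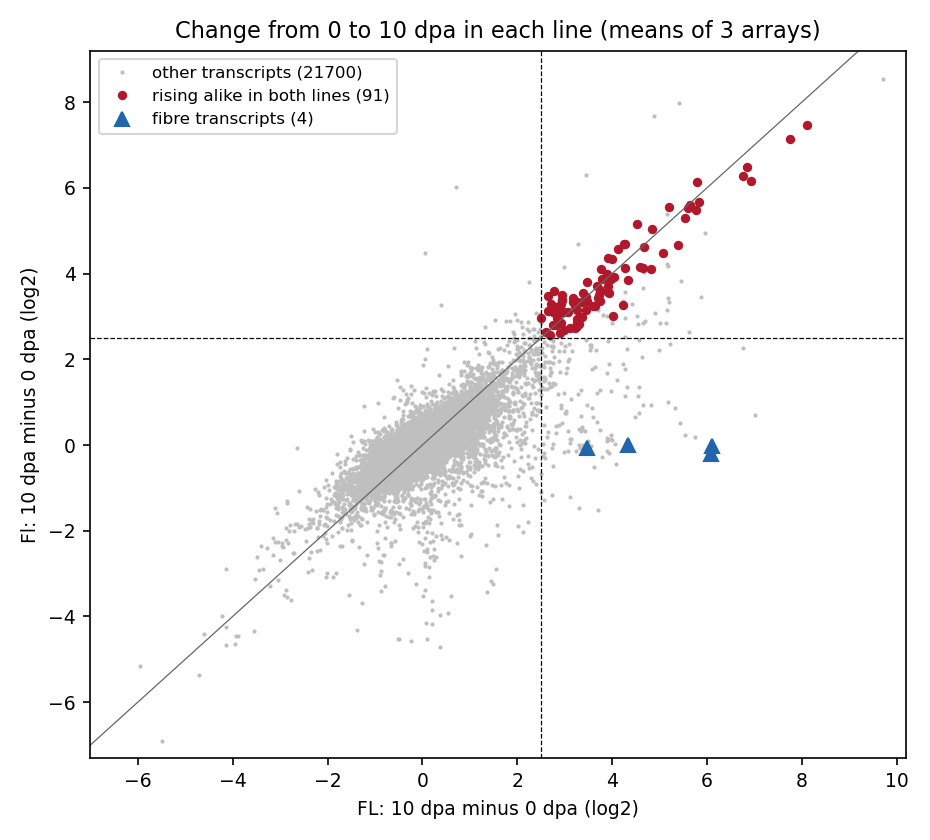
Change from 0 to 10 dpa in *FL* (horizontal) and in *Fl* (vertical), as log2 differences of the means of 3 arrays, for each of 21791 transcripts; the dashed lines stand at 2.5 and the solid line marks equal changes. The 91 transcripts (red) lie along the line of equal changes, and the 4 fibre transcripts (blue triangles) lie at 3.48 to 6.10 in *FL* and near 0 in *Fl*.

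At least 2.5 on the log2 scale was reached by 284 transcripts in *FL*, by 158 in *Fl* and by 129 in both. The 129 made up 45.4% of those of *FL* and 81.6% of those of *Fl*, and the 91 made up 32.0% and 57.6%. The other 38 of the 129 passed the limit of 0.8 between the lines, 30 of them at 10 dpa only, 5 at 0 dpa only and 3 at both stages. At 10 dpa 28 of the 38 were lower in *Fl* by the limit or more and 5 were higher, while at 0 dpa 4 were lower and 4 higher. After centring on the spiked controls 25 of the 38 were lower in *Fl* by 0.8 or more at 10 dpa and 5 were higher. After centring on array medians 28 were lower and 4 higher. A repeated quantile normalization left 4 lower and 7 higher, so of these alternatives only that step changed the balance. After that step the 2.5 was reached by 141 transcripts in *FL*, 154 in *Fl* and 87 in both. The 87 made up 61.7% of those of *FL* and 56.5% of those of *Fl*. Over all 21791 transcripts the changes in *FL* and *Fl* correlated at 0.741 (Pearson's r, across transcripts of the same 12 arrays, which are not independent replicates).

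The rises of the 91 ran from 2.503 to 8.10 in *FL*, with a median of 3.59 (12.1-fold), and from 2.57 to 7.46 in *Fl*, with a median of 3.46 (11.01-fold). The medians over all transcripts were -0.07 and -0.01. In both lines 58 of the 91 rose by 3 or more, 24 by 4 or more, 12 by 5 or more, 5 by 6 or more and 2 by 7 or more. Of all transcripts on the arrays, 84, 32, 15, 6 and 3 did so, and the difference in each pair of counts is the transcripts that differed by 0.8 or more between the lines. Of the 20 largest rises in *Fl*, 14 were among the 91, and of the 20 largest in *FL*, 11 were. Among the 100 largest the numbers were 71 in *Fl* and 34 in *FL*. After quantile normalization the numbers among the 100 largest were 69 in *Fl* and 42 in *FL*, and among the 20 largest they were again 14 and 11.

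A differentially expressed transcript (DET) is one that changed by a fold of 3 or more and whose p in limma, adjusted by Benjamini-Hochberg, was at most 0.01, the thresholds of the study's methods. By the fit over all transcripts, 2.94% were DETs that rose in *FL* and 1.83% were DETs that rose in *Fl*. All 91 were so in each line, which the rule largely fixed, since it used the same contrasts. In every one of the 91 all 6 arrays of 10 dpa lay above all 6 arrays of 0 dpa, with a gap of at least 1.82, a median gap of 2.99 and a gap of 7.22 at most. Of all transcripts, 15.3% had the arrays of 10 dpa above those of 0 dpa within each line.

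Transcript 1 had the largest rise of the 91 in both lines. It stood at -4.16, -3.92 and -3.65 in *FL* and at -3.77, -3.61 and -3.93 in *Fl* at 0 dpa. At 10 dpa it stood at 4.199, 4.204 and 4.18 in *FL* and at 3.77, 3.61 and 3.69 in *Fl*. The arrays of the lines overlapped at 0 dpa, and at 10 dpa all 3 of *FL* were above all 3 of *Fl*. The rise was 8.10 (275-fold) in *FL* and 7.46 (176-fold) in *Fl*, each with a standard error of 0.12.

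Transcript 2 came from a cluster number that it shared with 57 other transcripts on the array. It stood at -3.95, -4.18 and -4.18 in *FL* and at -3.76, -3.74 and -3.45 in *Fl* at 0 dpa. At 10 dpa its arrays read 3.70, 3.58 and 3.67 in *FL* and 3.48, 3.52 and 3.45 in *Fl*. Both stages separated the lines, with *Fl* the higher at 0 dpa and the lower at 10 dpa. Its rise was 7.76 in *FL* and 7.13 in *Fl*, with a standard error of 0.092 in each.

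Transcripts 3, 4 and 5 followed with rises of 6 or more in both lines. In transcript 3 the arrays of 0 dpa ran from -3.42 to -3.19 and those of 10 dpa from 3.19 to 3.58, and it rose by 6.85 in *FL* and 6.49 in *Fl*. Transcript 4 rose by 6.93 and 6.16, and transcript 5 by 6.77 and 6.27. In all 3 the arrays of *FL* at 10 dpa lay above those of *Fl*, and the arrays of 0 dpa overlapped between the lines.

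Of transcripts 6 to 12, only transcripts 6 and 12 rose more in *Fl* than in *FL* on the deposited scale. After centring on the spiked controls their differences were -0.14 and -0.15. After quantile normalization all of transcripts 6 to 12 rose more in *Fl*, by 0.78 to 1.31. Transcript 6 rose by 5.79 in *FL* and 6.14 in *Fl*, and transcript 12 by 5.20 and 5.55. Transcripts 7, 8, 9, 10 and 11 rose by 5.55 to 5.83 in *FL* and by 5.29 to 5.67 in *Fl*. Transcript 9 stood at -2.70, -2.84 and -2.57 in *FL* and at -3.03, -2.85 and -2.91 in *Fl* at 0 dpa, and at 2.94, 2.80 and 3.05 in *FL* and 2.74, 2.57 and 2.72 in *Fl* at 10 dpa. Its rises of 5.64 and 5.61 differed by -0.03 with a standard error of 0.13 (1.05 after quantile normalization), and the arrays of *Fl* lay below those of *FL* at both stages by means of 0.22 and 0.25. Transcript 10 had a line difference of 0.02 at 0 dpa and of -0.05 at 10 dpa, the smallest pair among the first 12.

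**Figure D2:**
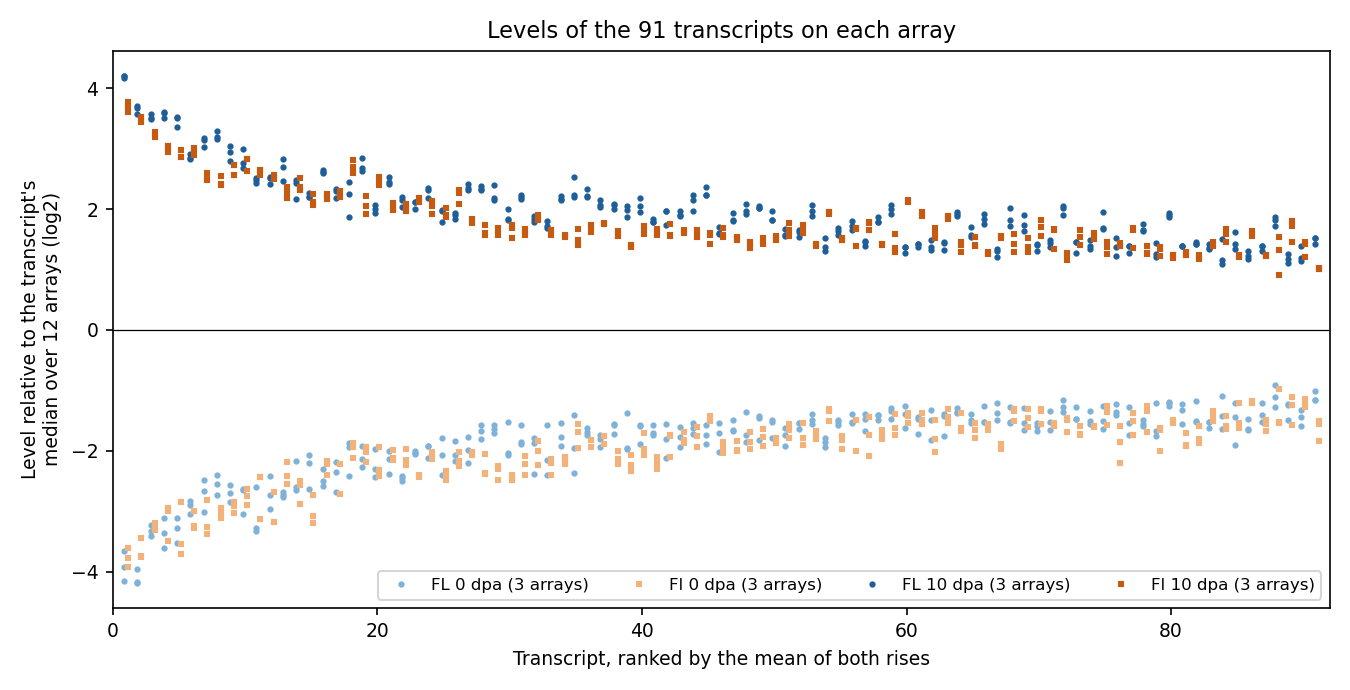
Level of each of the 91 transcripts on each of the 12 arrays, as log2 relative to the median of that transcript over all arrays, by rank of the mean rise; circles are *FL* and squares *Fl*, pale at 0 dpa and dark at 10 dpa. The arrays of 0 dpa and of 10 dpa stand apart in every transcript, by 1.82 at least, and the zero line falls between them because of the centring.

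The limits of the rule had near neighbours on both sides. The transcripts just inside the limit of 2.5, by the smaller of the rises in *FL* and *Fl*, were transcript 89 at 2.503, transcript 90 at 2.57 and transcript 91 at 2.60, and those just outside had 2.49, 2.49 and 2.48. The transcripts just inside the limit of 0.8 between the lines were transcript 35 at 0.79998, transcript 60 at 0.797 and transcript 72 at 0.766. Those just outside had 0.803, 0.812 and 0.845.

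The rises were next read on arrays left out of the group means that made the choice, although all arrays shared the same normalization. The rule was applied to 2 replicate numbers of each group and the difference was taken on the arrays of the number left out, a number that only names arrays and pairs none of them. With number 1 held out, 92 transcripts were chosen, 87 of them among the 91, and on the held-out arrays they rose by a median of 3.42 in *FL* and 3.47 in *Fl*. With number 2 held out, 94 were chosen, with medians of 3.55 and 3.49, and with number 3 held out, 91 were chosen, with medians of 3.62 and 3.43. The lowest rise on held-out arrays was 1.98 in *FL* and 1.88 in *Fl*, both with number 1 held out. The whole rule, limits between the lines included, was met on single held-out arrays by 78 of 92, 84 of 94 and 83 of 91. These choices overlap, since 87, 89 and 87 of those chosen were among the 91. The rises on the held-out arrays were thus largely fixed beforehand and are no independent support, and no test was made of them.

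Within the limit of 0.8 the lines were not evenly placed. *Fl* minus *FL* had a median of -0.17 over the 91 at 0 dpa (range -0.71 to 0.48) and of -0.24 at 10 dpa (range -0.80 to 0.80), against -0.02 and 0.04 over all transcripts. *Fl* was the lower line in 60 of the 91 at 0 dpa, but in 2 when each array was centred on the spiked controls, which themselves differed by -0.65 there. It was also the lower line in 60 at 10 dpa, but in none when the arrays were quantile normalized once more. The direction at each stage is thus given for the deposited scale only. Centring on the controls shifts all transcripts of an array alike. Quantile normalization narrows the wider *FL* arrays of 10 dpa. A turn can come from these steps themselves, and which scale is right was not tested. Over all transcripts *Fl* was the lower in 53.3% at 0 dpa and in 42.5% at 10 dpa. The spiked controls differed by -0.15 at 10 dpa, and their part in the line differences was not tested.

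On the deposited scale, which sets these directions as given above, 41 of the 91 were lower in *Fl* at both stages, 12 were higher at both, 19 went from higher to lower between 0 and 10 dpa, and 19 went from lower to higher. Transcript 47 shows the first of these courses. It stood at -1.48, -1.66 and -1.67 in *FL* and at -1.99, -1.84 and -2.00 in *Fl* at 0 dpa, and at 1.83, 1.93 and 1.81 in *FL* and 1.48, 1.54 and 1.53 in *Fl* at 10 dpa. The lines did not overlap at either stage and were 0.34 apart at each, so that the rises were both 3.46. Transcript 86 had the opposite order. It stood at -1.48, -1.63 and -1.65 in *FL* and at -1.17, -1.21 and -1.20 in *Fl* at 0 dpa, and *Fl* was higher by 0.39 at 0 dpa and by 0.36 at 10 dpa.

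At any fold, 17 of the 91 were called lower in *Fl* at 0 dpa and 3 higher, where 5.25% of all transcripts were called lower and 4.95% higher (adjusted p of 0.01 or less, limma). At 10 dpa 30 were called lower in *Fl* and 5 higher, where 9.7% and 9.15% of all transcripts were. After quantile normalization none was called lower and 73 higher at 10 dpa, where 7.65% and 6.97% of all transcripts were, and 7 lower and 6 higher at 0 dpa. After centring on the spiked controls none was called lower and 67 higher at 0 dpa, where 0.207% and 88.5% of all transcripts were, and 7 lower and 10 higher at 10 dpa. The rule bounded these differences, so nothing is read from the counts. The arrays of the lines did not overlap in 28 of the 91 with *Fl* lower and in 8 with *Fl* higher at 0 dpa, where 19.6% and 16% of all transcripts had such arrays. At 10 dpa there were 52 with *Fl* lower and 15 with *Fl* higher, where the shares of all transcripts were 19.2% and 24%. Calls at both stages fell on 12 of the 91 and on 4.36% of all transcripts, and 48 of the 91 and 75.3% of all were called at neither stage. The 20 calls of 0 dpa fell to 12 without replicate 2 of *FL* at 0 dpa, to 11 without replicate 1 of *Fl* at 0 dpa, and to 1 by the methods' t-test.

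**Figure D3:**
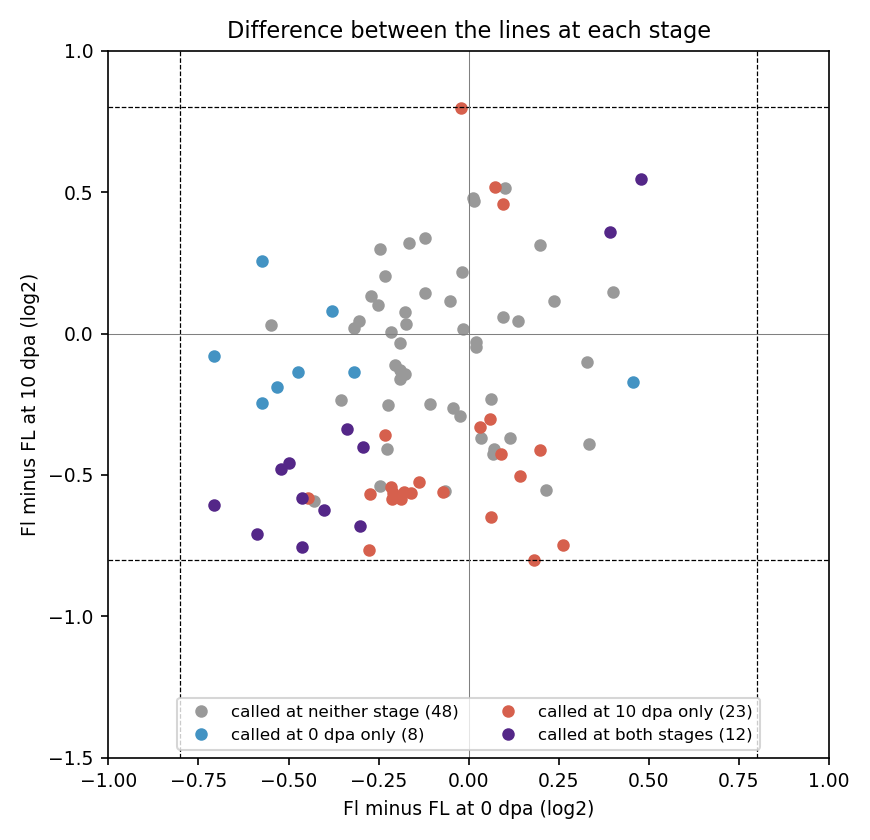
Difference of the means of *Fl* and *FL* (3 arrays each) at 0 dpa (horizontal) and at 10 dpa (vertical), log2, for the 91 transcripts, coloured by the stage at which limma called them at any fold; the dashed lines are the limit of 0.8 that chose them. The lower left field, lower in *Fl* at both stages on the deposited scale, holds 41 of the 91.

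The sizes of the rises were compared next. The difference between the rises, *Fl* minus *FL*, had a median of -0.07 over the 91 and ran from -1.01 to 0.83, and it lay within 0.2 of 0 in 30 of them. Of the first 20 transcripts 14 rose more in *FL*, with a median difference of -0.21, and of the other 71 transcripts 36 did, with a median of -0.03. After quantile normalization none of the first 20 and 2 of the other 71 rose more in *FL*, and after centring on the spiked controls 19 and 67 did, so which line rose more rests on the normalization. By the fit, 7 of the 91 had a smaller rise in *Fl* and 3 a larger one, beside 6.57% and 5.8% of all transcripts (adjusted p of 0.01 or less for the interaction in limma). After quantile normalization none was called with a smaller rise in *Fl* and 62 with a larger one, beside 5.603% and 4.78% of all transcripts, and the median difference was 0.72. After centring on the spiked controls 41 were called with a smaller rise and none with a larger one, beside 26.4% and 0.330% of all, and the median was -0.57 over the 91 and -0.44 over all transcripts. The 10 calls fell to 6 without replicate 2 of *FL* at 0 dpa, and also without replicate 3 of *FL* or replicate 2 or 3 of *Fl* at 10 dpa. In 47 of the 91, and in 74.2% of all transcripts, no difference was called between the lines at either stage or between their rises, which does not show that the lines were equal there.

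Transcript 45 had the largest difference between rises on the deposited scale. It stood at -1.57, -1.74 and -1.89 in *FL* and at -1.51, -1.42 and -1.48 in *Fl* at 0 dpa, and at 2.24, 2.36 and 2.24 in *FL* and 1.42, 1.57 and 1.60 in *Fl* at 10 dpa. The lines were thus in opposite order at the 2 stages, with *FL* the lower at 0 dpa and the higher at 10 dpa. The rise was 4.01 (16.1-fold) in *FL* and 3.00 (8.01-fold) in *Fl*, a difference of -1.01 with a standard error of 0.12. After quantile normalization its rises were 2.99 and 2.94, a difference of -0.05. Transcript 80, which shares its cluster number, rose by 3.12 and 2.74 and was lower in *Fl* at both stages, by 0.30 and 0.68.

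Transcript 67 went the other way. At 0 dpa it stood at -1.38, -1.21 and -1.49 in *FL* and at -1.97, -1.96 and -1.88 in *Fl*, and at 10 dpa at 1.21, 1.31 and 1.34 in *FL* and 1.56, 1.52 and 1.55 in *Fl*. It rose by 2.65 in *FL* and 3.48 in *Fl*, a difference of 0.83 with a standard error of 0.10. Transcript 60 differed by 0.82 with a standard error of 0.12, and here the lines overlapped at 0 dpa and were 0.80 apart at 10 dpa. Transcripts 35 and 4 had differences of -0.98 and -0.77 with standard errors of 0.28 and 0.20, and neither was called. After quantile normalization the differences of transcripts 67 and 60 were 1.23 and 1.43, and after centring on the spiked controls they were 0.33 and 0.32. Nearest to equal rises on the deposited scale, beside transcripts 9, 47 and 86, were transcript 32 with 3.86 and 3.89 and transcript 65 with 3.08 and 3.11.

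The spread between the arrays of a group was not used by the rule. At 0 dpa the median SD of the 91 over 3 arrays was 0.160 in *FL* and 0.126 in *Fl*, above the medians over all transcripts of 0.114 and 0.0848. At 10 dpa it was 0.0677 in *FL* and 0.0603 in *Fl*, below the medians of 0.1003 and 0.0923. In 63 of the 91 (69.2%) the SD was smaller at 10 dpa in both lines, against 26.3% of all transcripts. It was so in 37.8% of the 193 other transcripts that rose by 2.5 or more in *FL*, which did not have to rise in *Fl*. The median SD of the 193 also fell in *FL*, from 0.155 to 0.0919, and in *Fl* it went from 0.112 to 0.101. A smaller SD at 10 dpa in *FL* was thus not particular to the 91. Of the 26 transcripts that fell by 2.5 or more in both lines, 2 had the smaller SD at 10 dpa in both. The arrays thus varied more at the stage where such transcripts were low, and the values of the 91 at 10 dpa were closer together than those at 0 dpa. Transcript 11 is an example, with -3.28, -3.33 and -2.59 in *FL* at 0 dpa and 2.52, 2.48 and 2.43 at 10 dpa.

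**Figure D4:**
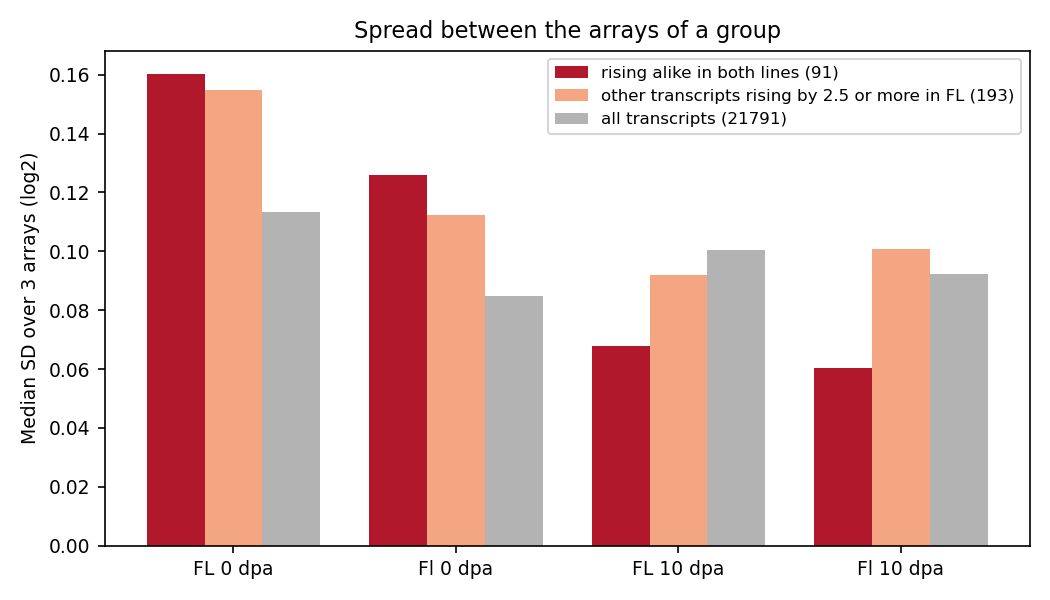
Median SD over the 3 arrays of each group (log2), for the 91 transcripts, for the 193 other transcripts that rose by 2.5 or more in *FL*, and for all 21791. The bars of the 91 are the highest at 0 dpa (0.160 and 0.126) and the lowest at 10 dpa (0.0677 and 0.0603).

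Averaged over the 91, the arrays of a group lay close together. The means were -1.82, -1.89 and -1.91 on the *FL* arrays of 0 dpa and -2.01, -2.00 and -2.01 on those of *Fl*. At 10 dpa they were 1.98, 2.00 and 2.02 in *FL* and 1.82, 1.80 and 1.83 in *Fl*. No array of a stage overlapped between the lines in this mean, and none stood apart from its group by more than 0.09. This order of the lines is given for the deposited scale only. *Fl* minus *FL* in this mean was -0.13 at 0 dpa and -0.19 at 10 dpa, while the spiked controls differed by -0.65 and -0.15. Since each transcript is centred on its own median, the mean shows the distance between groups and not a level.

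The identifiers hold features that the rule did not use. The array was built from sequences of several cotton species, and the first letters of an identifier give the source, with Ghi for *Gossypium hirsutum* and Gra for *Gossypium raimondii*. Identifiers with Ghi or GhiAffx belonged to 89 of the 91 (97.8%), against 71.5% of all transcripts, and those with Gra or GraAffx to 2 (2.20%), against 27.9%. Transcript 12 is one of the latter. The Gra and GraAffx transcripts changed less between the stages as a whole, with a median absolute change of 0.162 against 0.285 for Ghi and GhiAffx, and how far this sets the share was not tested.

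An identifier ending in _s_at marks a probe set whose probes match more than 1 transcript, and those ending in _x_at or _a_at can also take up signal of relatives in a gene family. Of the 91, 61 ended in _s_at (67.0%, against 39.6% of all transcripts), 6 in _x_at and 2 in _a_at. Only 22 (24.2%) ended in plain _at, against 52.4% of all. Among the first 9 transcripts none was of the plain kind. The letter S or A in an identifier gives the sense or antisense orientation of the probe set to its source sequence, and 71 of the 91 had S (78.0%, against 57.5% of all) and 20 had A.

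Several probe sets can share a cluster number, which by the naming of the array groups related sequences. The 91 came from 85 cluster numbers. In 5 of these lay 11 of the 91, so these are not separate observations. Transcripts 68, 69 and 75 shared a number and rose by 3.31, 3.25 and 3.24 in *FL* and by 2.81, 2.85 and 2.76 in *Fl*. Transcripts 54 and 63 shared another, were higher in *Fl* at both stages, and rose by 3.26 and 2.93 in *FL*. Transcripts 4 and 83 shared a number and rose unequally, by 6.93 and 2.93 in *FL*.

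The further probe sets of the same clusters are those that the rule did not pick, so any that rose alike were left out beforehand. Any of them that rose by 2.5 or more in both lines had to differ by 0.8 or more between the lines. In 15 clusters, leaving out the large one of transcript 2, 19 further transcripts had a median change of 0.76 in *FL* and 0.56 in *Fl*. Of these 4 were DETs that rose in both lines, 2 of them by 2.5 or more in both, 5 changed by less than 0.5 in both and 2 fell by 1 or more in a line. Transcript 10 rose by 5.59 in *FL* and 5.52 in *Fl*, while its neighbour changed by 0.16 and 0.10. Transcript 13 rose by 5.39 and 4.66, while 1 of its 2 neighbours fell by 2.01 in *FL* and 1.90 in *Fl*. The neighbours that rose by 2.5 or more belonged to transcript 8, with 4.92 in *FL* and 3.08 in *Fl*, and to transcript 16, with 3.998 and 2.84, and both were lower in *Fl* at 10 dpa by more than 0.8. In the large cluster the 57 others changed by -2.21 to 1.27 in *FL*, with a median of -0.07, so that transcript 2 stood alone there.

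For 5 of the 91, transcripts 37, 46, 49, 57 and 60, the array also held a probe set of the opposite orientation for the same sequence. None of these counterparts rose by 2.5 in either line. The counterpart of transcript 46 changed by -0.07 in *FL* and 0.35 in *Fl*, where transcript 46 rose by 3.39 and 3.54. That of transcript 60 rose by 1.01 and 1.68, where transcript 60 rose by 2.77 and 3.58. In each of the 5 pairs the counterpart rose by less than the transcript in both lines.

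**Figure D5:**
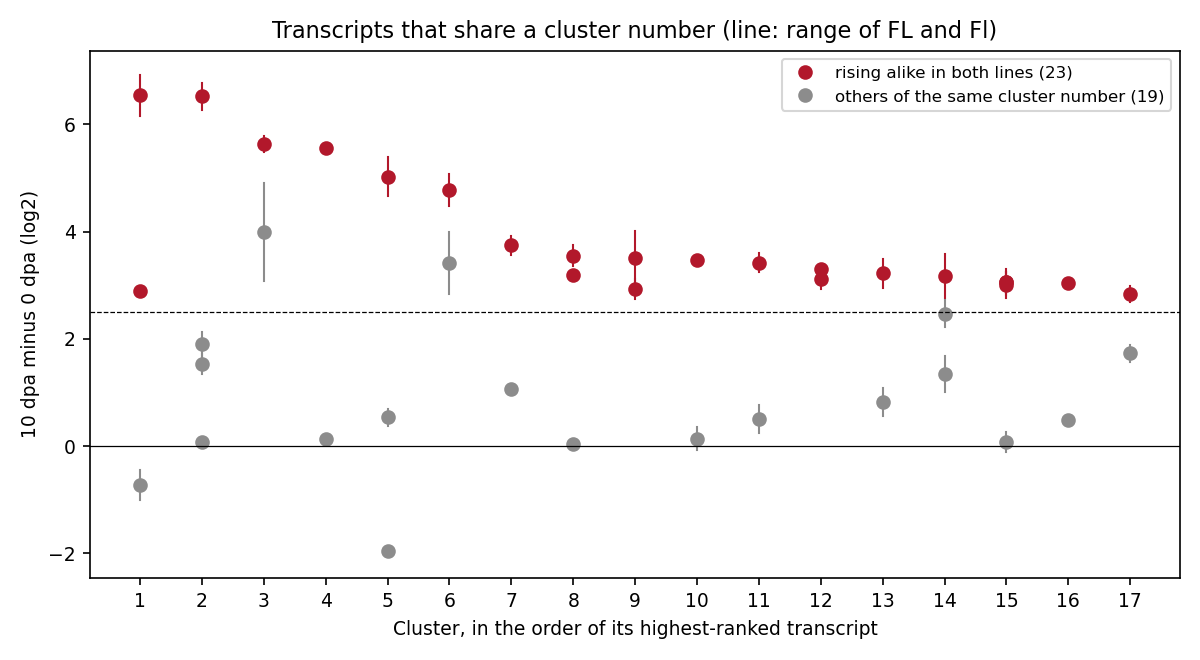
Change from 0 to 10 dpa (log2) of transcripts that share a cluster number with 1 or more of the 91, in 17 clusters ordered by their highest-ranked transcript, with the large cluster of transcript 2 left out; a point is the mean of the changes in *FL* and *Fl*, and the vertical line spans both. The 23 red points are among the 91 and the 19 grey points are not, of which only 2 lie above 2.5 in both lines.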

How the data were processed

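Total RNA of ovules was labelled as biotinylated cRNA and hybridized to Affymetrix cotton GeneChips. The authors normalized them with RMA (robust multi-array average) on the log2 scale in the GeneSpring software, and the deposited table holds 21791 transcript probe sets and 98 controls. In it every transcript has a median of 0 over the 12 arrays. Neither this centring nor the filter behind the number of probe sets is given in the sources used here. Differences between arrays are not changed by centring, but levels cannot be compared between transcripts.

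From these log2 values group means were taken, the rule was applied to all transcripts other than controls, and 1 linear model with a mean for each of the 4 groups was fitted in limma 3.58.1 (R 4.3.3) over the whole table. Contrasts were moderated by empirical Bayes and adjusted by Benjamini-Hochberg over all 21791 transcripts. A DET needed an adjusted p of 0.01 and a fold of 3. The fit was also run on simulated arrays. Their spread was the same in all 4 groups, so that run could not show how the fit handles a spread that differs between stages. The p-values set each difference against the spread between the arrays, which the labels give as biological replicates. That spread was 1 value per transcript for all 4 groups, so the standard errors are the same at both stages. The median SD of the 91 was however 0.160 in *FL* and 0.126 in *Fl* at 0 dpa, and 0.0677 and 0.0603 at 10 dpa. How far this changed the calls at each stage was not tested.

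The members and lists were chosen with earlier results of these data known. Transcripts were named by rank for the 12 largest mean rises, the 5 smallest and 5 largest differences between rises and the 3 on each side of each limit. Others were named for a cluster number or orientation, after their values were seen. Lists by gene function could not be applied without gene names. Alternatives were a repeated quantile normalization, centring on the spiked controls or on array medians, other limits, medians for means, each array left out, a replicate block, the methods' t-test and fewer transcripts tested.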

Additional observations from a re-analysis of the deposited data

Results flagged for a closer look

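The rises of 10 of the 91 transcripts (10.99%) were called different between the lines by the interaction in limma, beside 12.4% of all transcripts. The selection used the rises and bounded the line differences, so these are descriptions and no evidence about the 91, and 5 of the 10 are among the transcripts named by rule. On the deposited scale transcript 45 rose by 4.01 in *FL* and 3.00 in *Fl*, a difference (*Fl* minus *FL*) of -1.01, which was -0.05 after quantile normalization and -1.51 after centring on the spiked controls. Transcript 2 rose by 7.76 and 7.13, a difference of -0.63, which turned to 0.91 after quantile normalization and was -1.13 after centring on the controls. Transcript 72 rose by 3.26 and 2.77, a difference of -0.49, which turned to 0.27 and was -0.99 under the same alternatives. Transcript 67 rose by 2.65 and 3.48, a difference of 0.83, which was 1.23 and 0.33. Transcript 60 rose by 2.77 and 3.58, a difference of 0.82, which was 1.43 and 0.32. The other 5, transcripts 13, 16, 19, 23 and 80, had differences of -0.73, -0.61, -0.71, 0.46 and -0.38 on the deposited scale.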

How the results depend on the processing

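The rule gave 154 transcripts with a rise of 2 and 58 with a rise of 3, 56 with a limit of 0.5 between the lines, and 22 among plain _at probe sets. Repeated quantile normalization gave 51, of which 30 were among the 91. A limit of 1, centring on the spiked controls or on array medians, and medians for means gave 90 to 100. Quantile normalization equates the spread of arrays whose values are already centred by transcript, and large changes widen that spread, so it can shrink them by construction.

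The median rise of the 91 was 2.69 in *FL* and 3.36 in *Fl* after quantile normalization, so the line with the larger median turned. It was 3.91 in *FL* and 3.28 in *Fl* after centring on the controls. The median difference between the lines was -0.0395 at 0 dpa and 0.66 at 10 dpa after quantile normalization, and 0.48 and -0.0818 after centring on the controls. Calls between the lines were 13 at 0 dpa and 73 at 10 dpa after quantile normalization, and 67 and 17 after centring on the controls. The interaction was called in 62, all with the larger rise in *Fl*, and in 41, all with the smaller. Centring on the controls moved the median line difference of all transcripts at 0 dpa from -0.02 to 0.64. The methods' t-test called 1 of the 91 at 0 dpa, against 20 in limma, and 28 at 10 dpa, against 35. Testing only transcripts with the larger spread gave 17 interactions. With the replicate block there were 16 and 32 calls between the lines and 6 interactions against 10. Arrays of the same number deviated from their group means with correlations of -0.20 to 0.085 (18 pairs, none above 0.1), so the numbers were not taken as pairs.

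With each array left out in turn, the rule gave 90 to 94 transcripts, the median rises were 3.47 to 3.66 in *FL* and 3.41 to 3.51 in *Fl*, and the median line differences were -0.18 to -0.12 at 0 dpa and -0.25 to -0.20 at 10 dpa. Calls numbered 11 to 20 at 0 dpa, 24 to 38 at 10 dpa and 6 to 13 for the interaction. They fell by more than 1.5 times at 0 dpa without *FL* replicate 2 (12) or *Fl* replicate 1 (11) of 0 dpa, and to 6 for the interaction without *FL* 0 dpa replicate 2, *FL* 10 dpa replicate 3, *Fl* 10 dpa replicate 2 or *Fl* 10 dpa replicate 3. The held-out medians in *FL* were 3.55 and 3.62 for numbers 2 and 3 against 3.42 for number 1. Of the 48 rises of named transcripts, quantile normalization moved 39 by more than their spread, all downward, and centring on the controls moved 41, 24 of them upward. No alternative run turned the direction of a rise.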
